A study of Mus musculus with 5 samples.

Results

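p53, encoded by Trp53, and a list of genes that it is known to activate were followed in EpH4 cells, a mouse mammary epithelial cell line, in which Mef2d was targeted with Cas9. The list held 35 genes, Trp53 among them, and was given by gene name. Of these, 33 were among the 12934 genes listed and all 33 were among the 12483 genes tested, while Pmaip1 and Gdf15 were not analysed here. Every library came from EpH4 cells infected with lentivirus for Cas9 and selected with blasticidin, then infected with an sgRNA virus and selected with puromycin. The 3 sgControl libraries carry the control sgRNA and the 2 sgMef2d libraries an sgRNA against Mef2d. The selected cells are described as stable clones, and the sources used here do not say how many clones a group holds, which of 2 sgRNAs a library carries, or whether the libraries came from separate cultures, so the p-values measure only the spread between these libraries.

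p53 is a transcription factor that is kept low in unstressed cells mainly by its ubiquitin ligase MDM2, and DNA damage or other stress stabilizes the protein. It then activates genes that stop the cell cycle, trigger apoptosis, aid DNA repair and adjust metabolism, together with genes such as Mdm2 itself that switch it off again. In mammary epithelium it is a tumor suppressor that is often mutated in breast cancer. Because p53 is controlled mostly as a protein, the RNA of its targets is commonly read beside that of Trp53.

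p53 binds DNA as a tetramer at a pair of half-sites, and the pairs found in the promoters of Cdkn1a and Ccng1 are shown because both genes changed between the groups. RefSeq promoter sequence on GRCm38.p6 was found for 27 of the 35 genes and not for Trp53inp1, Tnfrsf10b, Perp, Zmat3, Rrm2b, Xpc, Ddb2 and Pmaip1. In the 250 bases before each start, 2 of the 27 genes held a pair of half-sites with at most 1 mismatch in each and at most 13 bases between them, as against 2.53% of the 27025 genes with a promoter sequence. The sites stand in capitals, in sequences written 5′ to 3′ on the strand of the gene. The first lies at chr17:29090898-29090977 on the plus strand, with the site from 51 to 32 bases before the upstream start of Cdkn1a, and the second at chr11:40755432-40755511 on the minus strand, with the site from 195 to 176 bases before the start of Ccng1.
Cdkn1a: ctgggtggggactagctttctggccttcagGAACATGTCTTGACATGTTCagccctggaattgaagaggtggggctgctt
Ccng1: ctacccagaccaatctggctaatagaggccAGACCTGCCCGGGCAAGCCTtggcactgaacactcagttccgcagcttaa
Each pair has 0 bases between its half-sites and 1 mismatch to the p53 half-site motif in all. In the Cdkn1a window the first half-site also pairs without a mismatch with another that ends 12 bases before it. A match describes the letters only, and many p53 sites lie outside this window, so the lack of one in the other 25 genes says nothing about p53 at them.

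The library totals lay between 13601145 and 20498563 counts, and a member's count in a library between 43 for Dcxr and 7017 for Plk2. Mef2d itself reached 64.2, 76.9 and 71.4 CPM (counts scaled to a common library total with TMM factors) in sgControl replicates 1 to 3, and 64.2 and 65.8 CPM in sgMef2d, so the groups overlapped (log2 fold change -0.12, adjusted p = 0.40 from the quasi-likelihood (QL) test of edgeR). It passed the threshold when sgControl replicate 1 was left out, at -0.19 (edgeR QL adjusted p = 0.00550), and in no other alternative run, with -0.060 (0.770) without sgControl replicate 2. RNA with small indels is still counted, so these values do not measure the MEF2D protein. sgControl replicate 1 stood apart, with a median absolute log2 difference of 0.139 and 0.148 from the other sgControl libraries, which differed from each other by 0.0848. Over all genes tested the pairs between the groups differed by 0.142 to 0.164, about as much as sgControl replicate 1 did from its own group, and results are given with and without that library where it changes them. Over the p53 genes the same median was 0.108 and 0.124 between sgControl replicate 1 and the others of its group, and 0.183 to 0.247 for the 6 pairs between the groups. Of 8 epithelial markers 7 were listed, with summed levels from 3930 to 4130 CPM in sgControl and from 3750 to 3910 CPM in sgMef2d, mostly Krt7, Krt8 and Krt18. The log2 fold change was above 0 for 5 of these 7 and below 0 for 2, Krt7 and Krt18. Of 5 fibroblast markers 4 were listed, at 572 to 674 CPM and 522 to 563 CPM in sum, mostly Col1a2 and Col1a1. Single markers moved in both directions, with Krt18 (-0.26, edgeR QL adjusted p = 0.0207) and Col1a2 (-0.54, 2.32e-04) lower and Cldn4 (0.26, 0.0407) and Dcn (1.23, 0.0203) higher in sgMef2d on the log2 scale. Of the leukocyte markers only Cd68 and Lyz2 were listed, at 2.29 CPM or less in sum in any library, and Ptprc, Cd3e, Cd79a and the 5 endothelial markers were not among the genes listed. The part of these markers in the results was not tested.

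Between the groups, 7 of the 33 p53 genes tested (21.2%) passed an edgeR QL adjusted p of 0.05, as against 7.95% of all genes tested. Mdm2, Ppm1d, Ccng1, Cdkn1a and Phlda3 rose in sgMef2d, 15.2% of the 33 against 3.67% of all genes, and Gadd45a and Fas fell, 6.06% against 4.28%. The unadjusted p lay below 0.05 for 17 of the 33 (51.5%), and 23.2% of all genes. The median log2 fold change of the 33 was 0.15, beside 0.0031 over all genes tested (0.080 for the 33 without sgMef2d replicate 1), and 21 of the 33 were higher in sgMef2d (63.6% against 50.7% of all genes). Both sgMef2d libraries lay above all 3 sgControl libraries in 16 genes (48.5% against 20.6%) and below them in 7 (21.2% against 20.5%), and such a separation in either direction held for 41.1% of all genes. The changes were small, from -0.64 for Fas to 0.59 for Dcxr on the log2 scale. Without sgControl replicate 1 the count rose to 18 of the 33, 15 of them higher, while 29.4% of all genes (3639) then passed. Without sgControl replicate 2, sgControl replicate 3, sgMef2d replicate 1 or sgMef2d replicate 2 it was 3, 4, 2 and 1, beside 4.84%, 6.51%, 1.88% and 1.83% of all genes, and Cdkn1a was among the genes called in each of the 12 alternatives run.

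**Figure D1:**
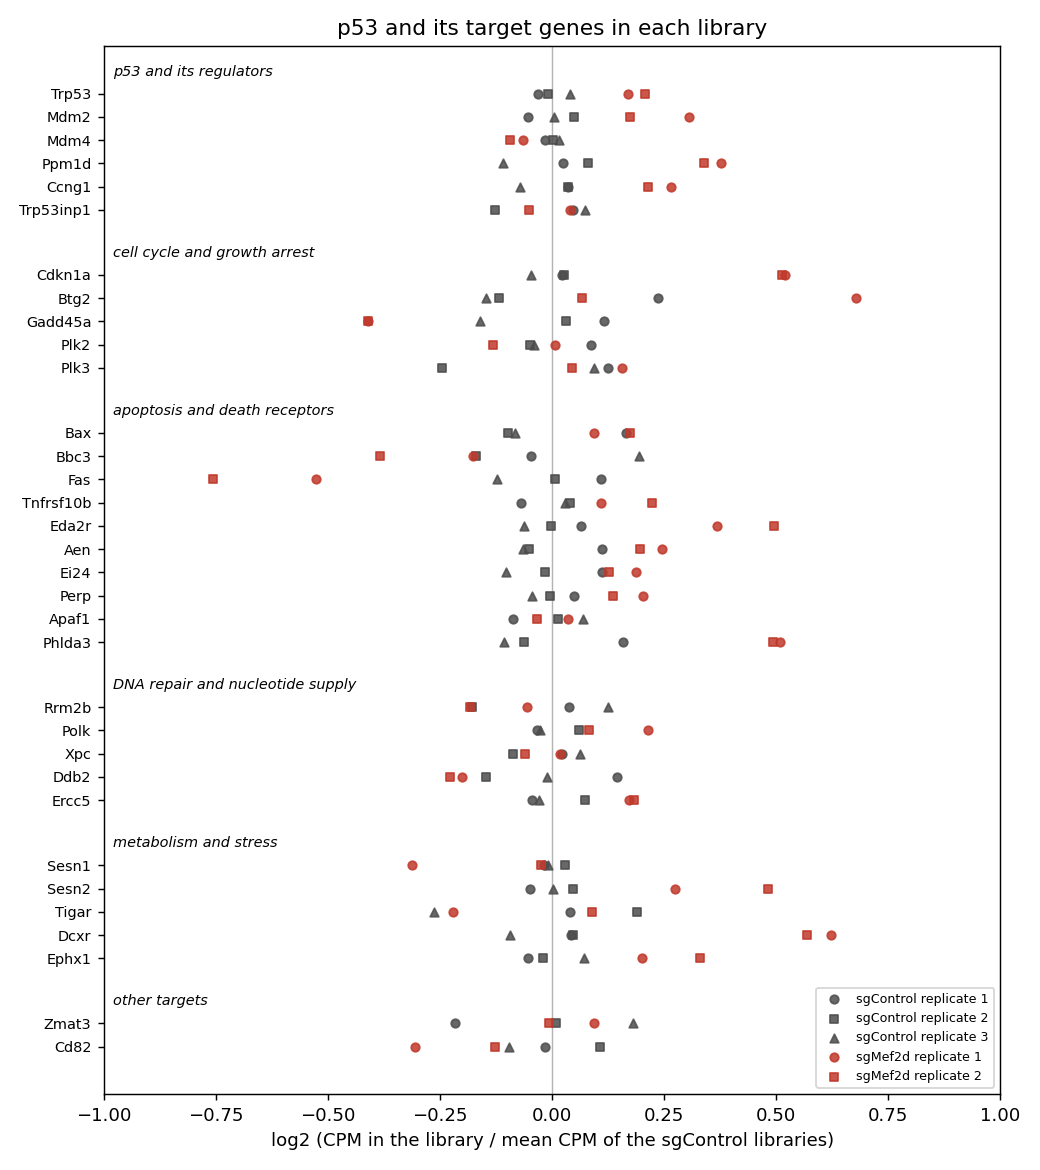
Each of the 33 p53 genes tested (rows, grouped by role) in each library, as the log2 ratio of its CPM to the mean CPM of the 3 sgControl libraries (x axis), with gray symbols for sgControl and red symbols for sgMef2d. Cdkn1a and Phlda3 have both red symbols near 0.5 and close together, Fas and Gadd45a have both red symbols to the left of the gray ones, and in 10 of the 33 genes the groups overlap.

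Trp53 (ENSMUSG00000059552.13, chromosome 11 of GRCm38, 69580359 to 69591873), which encodes p53, reached 212, 215 and 222 CPM in sgControl replicates 1 to 3, and 243 and 250 CPM in sgMef2d replicates 1 and 2. Both sgMef2d libraries were above every sgControl library, by a narrow margin. The means were 216 ± 5.53 CPM and 247 ± 4.67 CPM (mean ± SD of 3 and 2 libraries), a log2 fold change of 0.19 (SE 0.056, edgeR QL adjusted p = 0.0635), which did not pass the threshold. It passed once sgControl replicate 1 was left out, at 0.17 (SE 0.040, edgeR QL adjusted p = 3.60e-04). In that run 29.4% of all genes passed. In the other 11 alternatives Trp53 did not pass, with an adjusted p of 0.111 in DESeq2. Without sgControl replicate 2 or 3 the edgeR QL adjusted p was 0.209 and 0.0895. Other genes, most often the pseudogene Trp53-ps, share 3.88% of its 50-base words.

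The genes that hold p53 in check were read next. Mdm2 (ENSMUSG00000020184.15, chromosome 10, 117688875 to 117710758), which encodes the ligase that marks p53 for degradation, reached 78.5, 84.4 and 81.7 CPM in sgControl and 101 and 91.9 CPM in sgMef2d, so the groups did not overlap. Its log2 fold change was 0.24 (SE 0.067, edgeR QL adjusted p = 0.0480), close to the threshold. Mdm2 lost its call with DESeq2 (adjusted p = 0.0858), limma-voom (0.0524) and no filter (0.0509), and without sgControl replicate 2 (0.0950), sgControl replicate 3 (0.0924), sgMef2d replicate 1 (0.458) or sgMef2d replicate 2 (0.157), with log2 fold changes between 0.17 and 0.30.

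Ppm1d (ENSMUSG00000020525.17, chromosome 11, 85311244 to 85347066), which encodes the phosphatase WIP1 that removes activating phosphates from p53 and the damage kinases, reached 17.1, 17.7 and 15.5 CPM in sgControl and 21.8 and 21.2 CPM in sgMef2d. Every sgMef2d value was above the sgControl values, and the log2 fold change was 0.36 (SE 0.095, edgeR QL adjusted p = 0.0437). Ccng1 (ENSMUSG00000020326.7, chromosome 11, 40748552 to 40755311), which encodes cyclin G1, a partner of protein phosphatase 2A that acts on MDM2, and whose promoter site is printed above, reached 190, 190 and 177 CPM in sgControl and 223 and 215 CPM in sgMef2d. The groups were again separate, with a log2 fold change of 0.24 (SE 0.059, edgeR QL adjusted p = 0.0314). Both genes lost their call with the replicate number as a block (adjusted p = 0.0808 for Ppm1d and 0.102 for Ccng1), and without sgControl replicate 2 (0.0745 and 0.0852), sgControl replicate 3 (0.116 and 0.0983), sgMef2d replicate 1 (0.301 and 0.323) or sgMef2d replicate 2 (0.269 and 0.233). Ppm1d also lost it with DESeq2 (adjusted p = 0.117).

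Mdm4, which encodes the relative of MDM2 that covers the activation domain of p53, went the other way in its values, with 129, 130 and 131 CPM in sgControl and 124 and 122 CPM in sgMef2d. The log2 fold change was -0.08 (edgeR QL adjusted p = 0.440), with a 95% interval from -0.20 to 0.044. It shares 7.3% of its 50-base words, most often with Mdm4-ps. Trp53inp1, which encodes a stress-induced nuclear protein that promotes p53 phosphorylation and autophagy, had overlapping groups and a log2 fold change of -0.0068 (edgeR QL adjusted p = 0.977). Of these 6 genes, 3 rose (50% against 3.67% of all genes), 0 fell and 3 did not pass.

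Of the 5 genes of the cell cycle and growth arrest, 1 rose (20% against 3.67% of all genes), 1 fell (20% against 4.28%) and 3 did not pass. Cdkn1a (ENSMUSG00000023067.14, chromosome 17, 29090976 to 29100727), which encodes p21, the inhibitor of cyclin-dependent kinases through which p53 arrests the cell cycle, reached 46.5, 46.6 and 44.3 CPM in sgControl replicates 1 to 3 and 65.6 and 65.3 CPM in sgMef2d. The libraries of a group lay close together and the groups far apart for this list. The means were 45.8 ± 1.31 CPM and 65.5 ± 0.212 CPM (mean ± SD of 3 and 2 libraries), a 1.43-fold higher level, with a log2 fold change of 0.52 (SE 0.065, edgeR QL adjusted p = 7.88e-04). Over the 12 alternatives the log2 fold change stayed between 0.49 and 0.53 and the adjusted p between 1.12e-11 and 0.0266. The promoter site printed above precedes the upstream start of this gene, and the counts per gene do not tell its start sites apart.

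Gadd45a (ENSMUSG00000036390.8, chromosome 6, 67035096 to 67037457), which encodes a damage-inducible protein of arrest and repair, was lower in sgMef2d, at 22.4 and 22.4 CPM, than in sgControl, at 32.2, 30.3 and 26.6 CPM. All 3 sgControl libraries were above both sgMef2d libraries, though they differed among themselves. The log2 fold change was -0.42 (SE 0.097, edgeR QL adjusted p = 0.0240), and the call was lost without sgControl replicate 2 (adjusted p = 0.0733), sgMef2d replicate 1 (0.192) or sgMef2d replicate 2 (0.211). The antisense gene E230016M11Rik, at means of 1.06 CPM in sgControl and 0.732 CPM in sgMef2d, covers 19.1% of its exon bases, and whether the counting used strand is not given in the sources used here. Among the others, Btg2, an antiproliferative gene, had 17.4, 13.6 and 13.3 CPM in sgControl and 23.7 and 15.5 CPM in sgMef2d, with overlapping groups and a log2 fold change of 0.40 (edgeR QL adjusted p = 0.192). The stress-responsive polo-like kinase genes Plk2 and Plk3 stood at -0.06 and 0.10 on the log2 scale (edgeR QL adjusted p = 0.633 and 0.635). Btg2 passed when sgControl replicate 1 was left out, at 0.55 (edgeR QL adjusted p = 1.36e-04), but its value rested on sgMef2d replicate 1, without which it was 0.047 (0.940). Without sgMef2d replicate 2 it was 0.66 (0.0836).

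**Figure D2:**
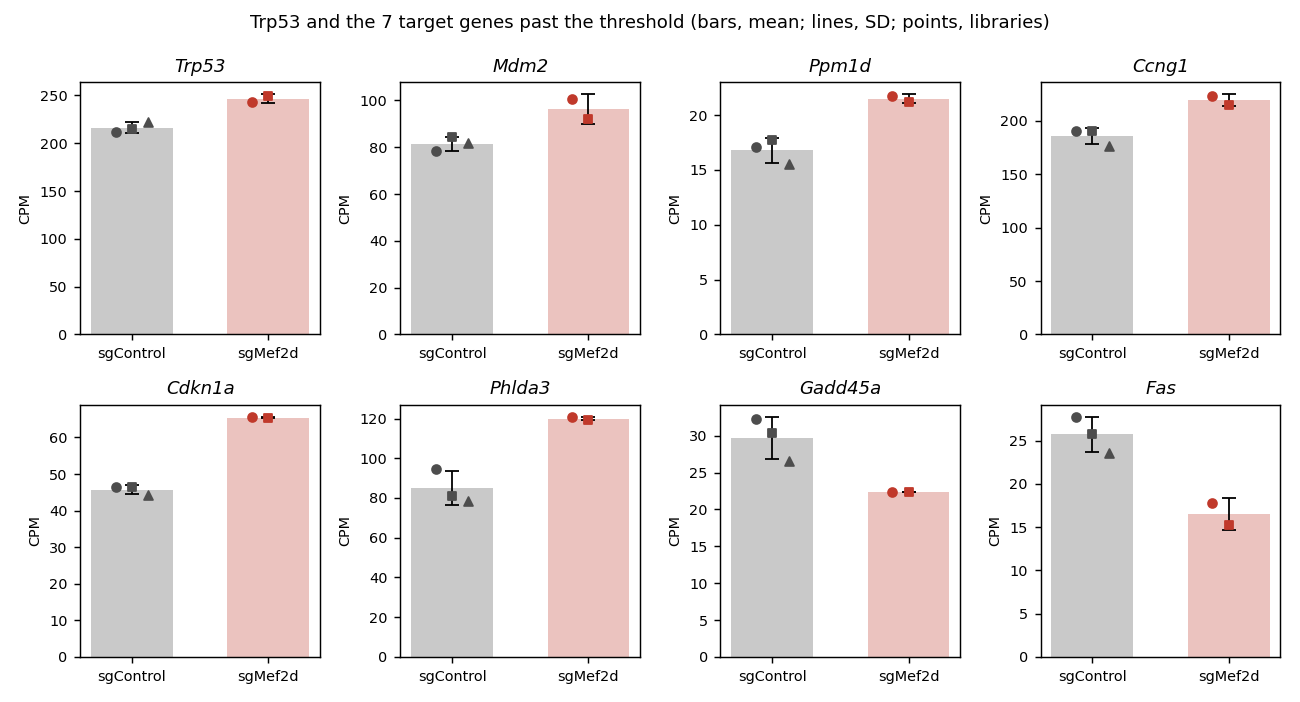
CPM (y axis, from 0) of Trp53 and of the 7 target genes past the threshold in sgControl (gray, 3 libraries) and sgMef2d (red, 2 libraries), with bars for the mean, lines for the SD and points for the libraries. Cdkn1a goes from a mean of 45.8 to 65.5 CPM and Phlda3 from 84.8 to 120 CPM, while Fas goes from 25.7 to 16.5 CPM, and in none of the 8 panels do the points of the groups overlap.

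Of the 10 genes of apoptosis and death receptors that were tested, 1 rose (10% against 3.67% of all genes), 1 fell (10% against 4.28%) and 8 did not pass, and 8 of the 10 had log2 fold changes above 0 (80% against 50.7%). Phlda3 (ENSMUSG00000041801.5, chromosome 1, 135766119 to 135769136), which encodes a pleckstrin homology domain protein that keeps AKT from the membrane, reached 94.6, 81.2 and 78.7 CPM in sgControl and 121 and 119 CPM in sgMef2d. The groups were well separated, at 84.8 ± 8.54 CPM and 120 ± 0.932 CPM (mean ± SD of 3 and 2 libraries), with a log2 fold change of 0.50 (SE 0.079, edgeR QL adjusted p = 0.00304). The call was lost only where a group was left with a single library, without sgMef2d replicate 1 (adjusted p = 0.0629) or sgMef2d replicate 2 (0.0565).

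Fas (ENSMUSG00000024778.13, chromosome 19, 34290666 to 34327772), which encodes the death receptor for FAS ligand, moved in the opposite direction, from 27.7, 25.8 and 23.6 CPM in sgControl to 17.8 and 15.2 CPM in sgMef2d. Its log2 fold change of -0.64 was the lowest of the 33 genes (SE 0.107, edgeR QL adjusted p = 0.00413), a level 0.642 times that of sgControl. Only without sgMef2d replicate 2, which leaves a single sgMef2d library, was the call lost (log2 fold change -0.54, adjusted p = 0.0940).

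Bax and Bbc3, genes of the mitochondrial pathway, did not pass the threshold. Bax, the effector that permeabilizes mitochondria, reached 108, 89.8 and 90.8 CPM in sgControl and 103 and 108 CPM in sgMef2d, so that sgControl replicate 1 lay among the sgMef2d values. Its log2 fold change was 0.13 (edgeR QL adjusted p = 0.382), and without sgControl replicate 1 it was 0.22 (edgeR QL adjusted p = 2.21e-04), but 0.085 without sgControl replicate 2 and 0.087 without sgMef2d replicate 2. Of its 50-base words 8.51% are shared, most often with the overlapping gene Gm45808. Bbc3, which encodes the BH3-only protein PUMA, had 6.63, 6.10 and 7.84 CPM in sgControl and 6.06 and 5.25 CPM in sgMef2d. Both sgMef2d values were just below the lowest sgControl value, and the log2 fold change was -0.27 with a 95% interval from -0.62 to 0.091 (edgeR QL adjusted p = 0.365), and it was -0.17 without sgControl replicate 3 and -0.18 without sgMef2d replicate 2.

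The other genes of this group lay above 0 without passing. Tnfrsf10b, the TRAIL receptor gene, had a log2 fold change of 0.17, and Eda2r, the gene of the ectodysplasin A2 receptor, of 0.42 (edgeR QL adjusted p = 0.206 and 0.0606). Aen, which encodes an apoptosis-enhancing nuclease, had 0.22, Ei24, a gene of an endoplasmic reticulum protein, 0.16, and Perp, a gene of a desmosomal protein that also acts in apoptosis, 0.17 on the log2 scale. Apaf1, which encodes the scaffold of the apoptosome, had 0.0063. In all of these but Apaf1 both sgMef2d libraries were above the sgControl libraries, as in 20.6% of all genes. Without sgMef2d replicate 2, Tnfrsf10b had 0.11. With sgControl replicate 1 left out, Eda2r (adjusted p = 0.0141), Aen (4.59e-07), Ei24 (3.74e-04) and Perp (7.32e-05) passed the edgeR QL threshold, and Tnfrsf10b did not (0.157). In that run 29.4% of all genes passed, and Eda2r, Aen, Ei24 and Perp passed in no other alternative.

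None of the 5 genes of DNA repair and nucleotide supply passed in the edgeR QL test (7.95% of all genes), and 0 of the 5 had an unadjusted p below 0.05, beside 23.2% of all genes (DESeq2 and limma-voom also called 0 of them). Xpc and Ddb2, which encode damage sensors of nucleotide excision repair, had log2 fold changes of -0.02 and -0.22, and Ercc5, the gene of its 3′ endonuclease, of 0.18. Polk, the gene of a translesion polymerase, had 0.15 and Rrm2b, which encodes the p53-inducible subunit of ribonucleotide reductase, -0.12 on the log2 scale. The 95% intervals of all 5 reached from below 0 to above it, the widest from -0.47 to 0.02 for Ddb2 and from -0.38 to 0.14 for Rrm2b. Leaving out 1 library moved Polk to 0.079 (sgMef2d replicate 1), Rrm2b to -0.060 (sgControl replicate 3) or -0.19 (sgControl replicate 2), and Ddb2 to -0.14 (sgControl replicate 1). Acp2 lies antisense over 23.8% of the exon bases of Ddb2.

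Of the 5 genes of metabolism and stress that were tested, 0 passed in the edgeR QL test (7.95% of all genes), while 3 had an unadjusted p below 0.05 (60% against 23.2%). Dcxr, which encodes a carbonyl and xylulose reductase, had the highest log2 fold change of the 33 genes, 0.59 (adjusted p = 0.0592), from 3.46, 3.47 and 3.15 CPM in sgControl to 5.18 and 4.98 CPM in sgMef2d. Its counts were the lowest of the list, between 43 and 88 per library. Sesn2, a gene of the sestrins that restrain mTORC1, had 0.38 (adjusted p = 0.0759) and Ephx1, the gene of microsomal epoxide hydrolase, 0.27 (adjusted p = 0.0565), with separate groups in both. Sesn1 and Tigar, the latter a gene of a fructose bisphosphatase that lowers glycolysis, had -0.17 and -0.07 on the log2 scale, and did not pass either. The value of Sesn1 was -0.029 without sgMef2d replicate 1 and -0.32 without sgMef2d replicate 2. When sgControl replicate 1 was left out, Dcxr (edgeR QL adjusted p = 0.0284), Sesn2 (0.0408) and Ephx1 (0.00529) passed, as did 29.4% of all genes. Ephx1 also passed with the replicate block (edgeR QL adjusted p = 0.0241), where 10% of all genes did. Dcxr and Sesn2 passed in no other alternative.

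The other targets also gave 0 calls out of 2 (7.95% of all genes), with 1 unadjusted p below 0.05 (23.2% of all genes), and likewise 0 with DESeq2 and limma-voom. Zmat3, a gene of an RNA-binding zinc finger protein, had 63.9, 74.7 and 84.2 CPM in sgControl and 79.2 and 73.9 CPM in sgMef2d, with the sgMef2d values inside the sgControl range. Cd82, which encodes a metastasis-suppressing tetraspanin, had 38.2, 41.5 and 36.1 CPM in sgControl and 31.2 and 35.3 CPM in sgMef2d. The log2 fold change of Cd82 was -0.22 (edgeR QL adjusted p = 0.170), and without sgControl replicate 1 it was -0.23 (edgeR QL adjusted p = 0.0172). Without sgMef2d replicate 1 it was -0.13 (0.677), and without sgMef2d replicate 2 -0.31 (0.301).

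**Figure D3:**
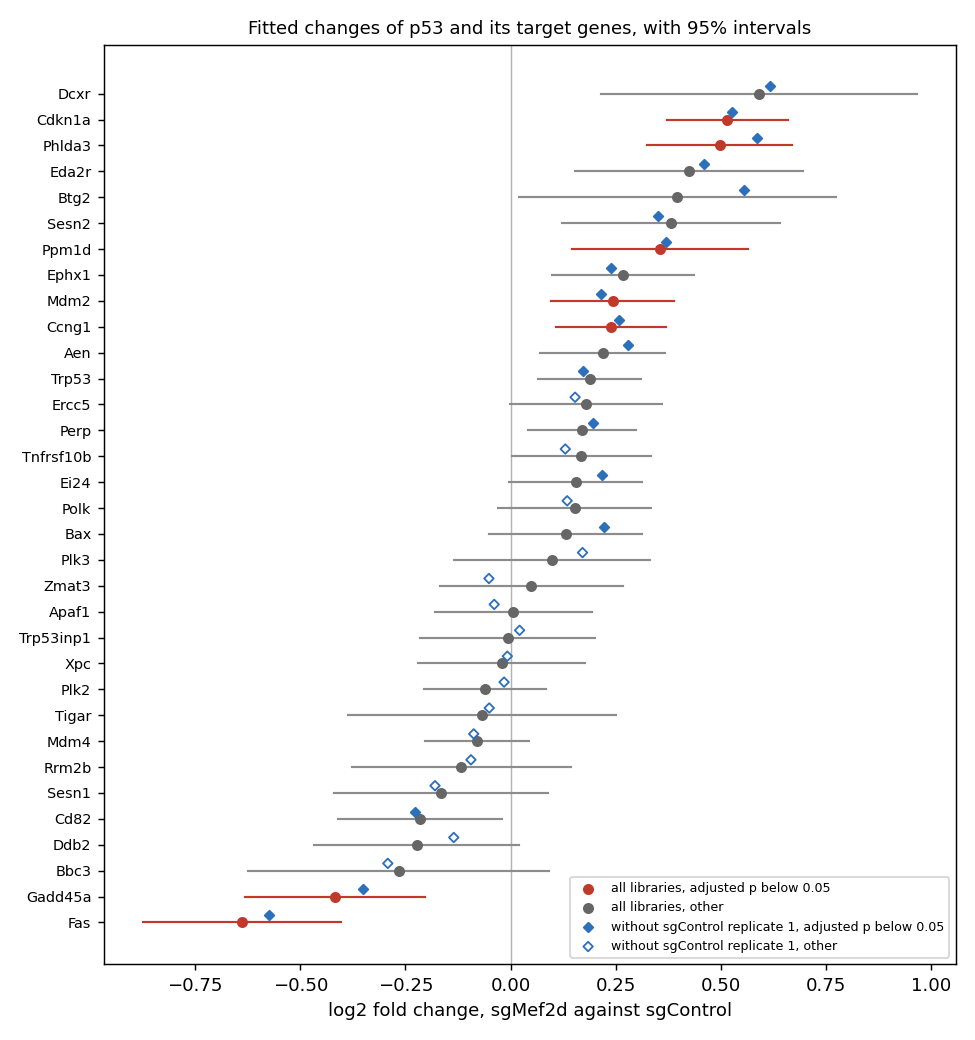
Log2 fold change of sgMef2d against sgControl (x axis) for the 33 genes tested, ordered by size, with lines for 95% intervals from the fit to all 5 libraries (red, adjusted p below 0.05) and blue diamonds for the fit without sgControl replicate 1 (filled, adjusted p below 0.05). The red points run from -0.64 for Fas to 0.52 for Cdkn1a, and 18 diamonds are filled as against 7 red points.

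Scaled by exon length (RPKM, the CPM divided by the exon length in kilobases), the levels of the 33 genes in sgControl cells ran from 1.34 for Eda2r to 103 for Perp, with a median of 7.37 beside 6.53 over all genes tested. Perp, Plk2 (71.8 RPKM), Bax (61.0), Phlda3 (54.4), Trp53 (53.5) and Ccng1 (52.9) formed the upper end. Mdm2 (16.0 RPKM) and Cdkn1a (12.9) lay in the middle, and Rrm2b (1.58), Sesn2 (2.84) and Dcxr (2.94) at the lower end with Eda2r. These levels use the summed exons of all annotated transcripts, so a gene whose cells use short isoforms is understated.

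Genes that act on p53 and genes near it in the network were counted beside the list. A list here named upstream of p53 held 33 genes, damage kinases, adaptors, ligases and acetyltransferases together with the p53 relatives. Of these, 31 were tested, 1 rose and 0 fell (3.23% against 7.95% of all genes), with a median log2 fold change of -0.02. The gene that rose was Trp63, which encodes the p53 relative p63 of basal epithelium, from 29.1 ± 2.67 CPM to 48.6 ± 2.05 CPM (mean ± SD of 3 and 2 libraries), a log2 fold change of 0.74 (edgeR QL adjusted p = 4.84e-04). p63 binds DNA motifs much like those of p53. Daxx and Atr, a chaperone gene and a damage kinase gene, had the next smallest p, at 0.26 and -0.23 on the log2 scale (edgeR QL adjusted p = 0.0635 and 0.0639). In this list 13 genes passed without sgControl replicate 1, where 29.4% of all genes did.

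Of 31 further genes described as p53 targets, 29 were tested, 7 rose and 0 fell (24.1% against 3.67% of all genes for a rise), and the median log2 fold change was 0.17. Igfbp3, an IGF-binding protein gene, rose with a log2 fold change of 1.11 (edgeR QL adjusted p = 1.78e-05), from 40.6 ± 3.38 CPM to 87.7 ± 7.10 CPM (mean ± SD of 3 and 2 libraries). Ier3, an immediate early gene of cell survival, rose by 0.56 (adjusted p = 6.77e-04) and Sfn, which encodes the arrest protein 14-3-3 sigma of epithelia, by 0.47 (adjusted p = 0.00783) on the log2 scale in the edgeR QL test. Many genes of this list answer to factors other than p53 as well. Without sgControl replicate 1, 15 of them passed (29.4% of all genes), without sgControl replicate 2, 4 (4.84%), and without sgMef2d replicate 1 or 2, 2 (1.88% and 1.83%).

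Of 27 genes that p53 is known to lower through p21 and the DREAM complex, mostly genes of DNA replication and mitosis, 4 rose and 0 fell (14.8% against 3.67% of all genes for a rise). Their median log2 fold change was 0.10, beside 0.0031 over all genes, and 24 of the 27 lay above 0 (88.9% against 50.7%). The kinase genes of mitosis Aurkb (0.30, adjusted p = 0.00998), Plk1 (0.24, adjusted p = 0.0256) and Aurka (0.24, adjusted p = 0.0328) rose on the log2 scale in the edgeR QL test, in the libraries in which Cdkn1a rose. Without sgControl replicate 1, 16 of the 27 passed (29.4% of all genes), without sgControl replicate 2 or 3, 1 (4.84% and 6.51%), and without sgMef2d replicate 1 or 2, 0 (1.88% and 1.83%).

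ATF4, the factor of the integrated stress response, is known to share Sesn2, Bbc3 and Tnfrsf10b with p53. Of 21 genes it activates, 20 were tested, 1 rose and 2 fell (15% against 7.95% of all genes), with a median log2 fold change of -0.04. Nupr1 and Trib3, genes of stress regulators, fell by 0.42 (adjusted p = 0.0176) and 0.47 (adjusted p = 0.0269) on the log2 scale, and Ppp1r15a, which encodes the GADD34 subunit of an eIF2-alpha phosphatase, rose by 0.43 (adjusted p = 0.0468), in the edgeR QL test. The calls numbered 9 without sgControl replicate 1 (29.4% of all genes), 1 without sgControl replicate 3 (6.51%), and 0 without sgMef2d replicate 1 or 2 (1.88% and 1.83%).

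**Figure D4:**
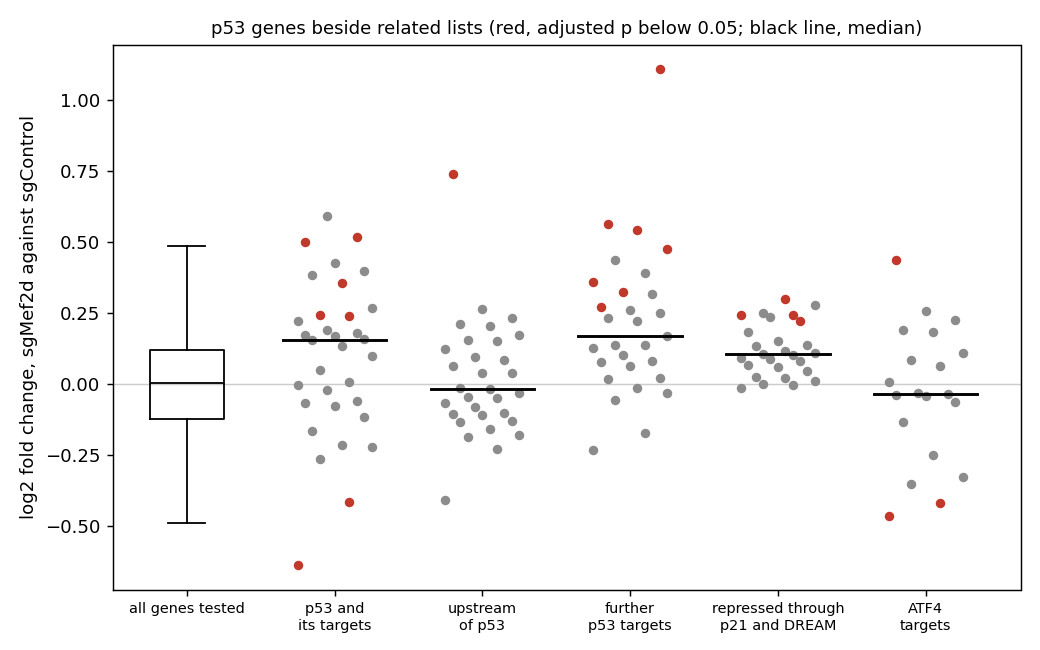
Log2 fold changes of sgMef2d against sgControl (y axis) for all 12483 genes tested (box, quartiles with whiskers to 1.5 times the box height) and for the genes of 5 lists (points, red with an adjusted p below 0.05, black lines for medians). The medians are 0.15 for p53 and its targets, -0.02 upstream of p53, 0.17 for further p53 targets, 0.10 for genes repressed through p21 and DREAM, and -0.04 for ATF4 targets.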

How the data were processed

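RNA of 3 sgControl and 2 sgMef2d libraries was sequenced from poly(A)-selected libraries whose preparation marks the strand. The authors aligned reads with STAR to GRCm38 and deposited raw counts per gene. The submitters' processing notes also name Subread, and the paper's methods give GENCODE version 22. All 12934 identifiers matched GENCODE M21, with 0 unmatched. The lowest maximum over the libraries was 11 counts for any gene, and the methods mention a filter on low-count genes for the ranked data of the pathway analysis, without saying whether it was applied to this table. Columns left unused numbered 0.

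TMM factors and the quasi-likelihood (QL) test in its bias-adjusted form were computed with edgeR 4.0.16 (R 4.3.3) over the 12483 genes kept by its expression filter, with Benjamini-Hochberg adjustment over all of them and a threshold of 0.05. Standard errors were derived from the F statistic and 95% intervals from its degrees of freedom. Log2 CPM used a prior count of 2, and a count of 3 was 0.146 to 0.220 CPM. PCR duplicates could not be counted apart, so the intervals rest on the counts and the spread between libraries alone. On simulated counts of 12332 genes, 59 of 100 genes changed by 0.5 (log2) and 90 of 100 changed by 1 were recovered, with 10 calls among 12134 unchanged genes. Genes were simulated independently, with no library made to stand apart as sgControl replicate 1 did, so these counts may not hold for real libraries.

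Members and lists were chosen with earlier results of these data known. Genes named in full were those past the threshold plus Trp53, Mdm2, Mdm4, Cdkn1a, Ccng1, Bax, Bbc3 and Fas, and of each further list the 3 with the smallest p. The other values per library, for Btg2, Dcxr, Zmat3 and Cd82, were chosen after they were seen. Alternatives were other scalings, no filter, the legacy form, DESeq2 1.42.0, limma-voom (limma 3.58.1), the replicate number as a block, and omission of each library in turn. For the further lists they were chosen after seeing the data. p53 half-sites were searched with the C and G of the core required. This motif is its own reverse complement, so both strands were covered.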

Additional observations from a re-analysis of the deposited data

How the results depend on the processing

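Of 7 called p53 genes, 7 stayed called with DESeq2 size factors (7.95% of all genes called), upper-quartile scaling (7.88%) and the legacy form (7.87%). With no filter (7.68% of all genes called) and limma-voom (7.55%) 6 stayed called, and with DESeq2 5 did (6.44%, 804 genes beside 992). In DESeq2 3 (not 5) were called higher (2.98% of all genes), and 1 gene (not 3) of the ATF4 list was called. The replicate block gave 6 (5 of them among the 7, with Ephx1 added and Ppm1d and Ccng1 lost), beside 1254 of all genes (10%). Of the 31 genes tested in the list named upstream of p53 it gave 3 (not 1), beside the same 10%. Same-numbered libraries showed little shared deviation (r = 0.0113 and -9.16e-04 across genes). With 2 sgMef2d libraries the deviations from their mean mirror each other, so these values cannot tell whether the numbers pair the libraries. With no mismatch in either half-site, 1 gene, Cdkn1a, held a promoter site (3.7% of 27 against 0.0666% of all promoters), and with a spacer of 0 or 1 base 2 did (7.41% against 0.451%).

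Leaving out each library in turn moved the genes called from 234 to 3639 (higher 135 to 1804, lower 97 to 1835), the p53 genes called from 1 to 18 (higher 1 to 15, lower 0 to 3) and their median log2 fold change from 0.080, without sgMef2d replicate 1, to 0.153. The lists upstream of p53, of further targets, of DREAM genes and of ATF4 targets moved from 1 to 13, 2 to 15, 0 to 16 and 0 to 9 calls. Leaving out a library of sgMef2d leaves 1, whose spread is then taken from sgControl, and fewer calls follow from that construction in part. The cause of the rise without sgControl replicate 1 was not tested.

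Small changes turned sign without passing the threshold: Trp53inp1 (0.031) and Xpc (0.0095) with the replicate block; Trp53inp1 (0.021), Apaf1 (-0.039) and Zmat3 (-0.052) without sgControl replicate 1; Plk3 (-0.0078) and Tigar (0.027) without sgControl replicate 2; Trp53inp1 (0.027) and Xpc (0.0067) without sgControl replicate 3; Apaf1 (-0.036), Tigar (0.080) and Zmat3 (-0.0076) without sgMef2d replicate 1; Trp53inp1 (0.033), Plk2 (0.0019) and Xpc (0.011) without sgMef2d replicate 2. Over the libraries left out, these 7 spanned -0.064 to 0.033 (Trp53inp1), -0.14 to 0.0019 (Plk2), -0.0078 to 0.17 (Plk3), -0.039 to 0.041 (Apaf1), -0.066 to 0.011 (Xpc), -0.23 to 0.080 (Tigar) and -0.052 to 0.15 (Zmat3). The lowest counts were those of Dcxr, 43 to 88 per library.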
